A study of Mus musculus with 12 samples.

Results

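Cytochrome P450 enzymes (CYPs) and the aryl hydrocarbon receptor (AhR) axis were examined in mouse colonoids, the organoids grown from colonic epithelial stem cells. The set held 102 of the 54532 genes measured. They were the 98 protein-coding genes whose symbol begins with Cyp followed by a number, a letter and a number, together with *Por*, *Ahr*, *Ahrr* and *Tiparp*. *Cyp51* and *Cyp2ab1* do not follow that pattern and were left out. Control colonoids were *Hmox1 fl/fl*. Those labelled KO carried floxed *Hmox1* and *Vil1*-Cre, which is driven by the villin promoter and deletes in intestinal epithelium. Both came from colons of mice aged 8 to 12 weeks and were kept in L-WRN cell-conditioned enteroid medium. Exposure was to vehicle or to 200 µM hemin, a ferric heme chloride, for 24 hours, and poly-A RNA of 3 libraries per group was sequenced, 12 in all. The sources do not say how many animals or cultures the libraries of a group came from, so p-values measure only the spread between these libraries, which may be technical.

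CYPs are heme enzymes that use electrons from NADPH to insert oxygen into fatty acids, steroids, retinoids, drugs and other foreign chemicals. Most sit in the endoplasmic reticulum and receive their electrons from P450 oxidoreductase, encoded by *Por*. AhR is a ligand-activated transcription factor that pairs with ARNT on DNA whose core is GCGTG, and it is best known for inducing *Cyp1a1*, *Cyp1b1*, its own repressor *Ahrr*, and *Tiparp*, which ADP-ribosylates AhR and lowers its activity. In the gut, CYPs limit the passage of foreign chemicals and convert arachidonic acid and other lipids to signaling molecules.

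Between 11648801 and 25101868 fragments (sequenced read pairs on genes) were counted per library. *Hmox1* was at 6.85 to 7.90 FPKM in control colonoids with vehicle and 2.11 to 3.14 in those labelled KO with vehicle. With hemin it was at 382 to 503 in controls and 1271 to 1393 in those labelled KO, so that with hemin its level went against the label. These are levels of the whole gene and do not show which exons were present. All 7 epithelial markers were detected in every library, with sums of 5591 to 9843 FPKM, the 5 fibroblast markers summed to at most 0.0791 FPKM and the 3 endothelial markers to at most 0.192. The 5 leukocyte markers summed to 0.996 to 5.17 FPKM. Their sum was 2.42 to 4.53 with vehicle and 2.56 to 5.17 with hemin in controls. In those labelled KO it was 0.996 to 1.75 and 2.99 to 3.90, and *Cd68*, the only one tested, was called higher with hemin there (log2 difference 1.14). The noncoding gene *Gm23935* was at 63032, 137026 and 91809 FPKM in replicate 1 of both control groups and in replicate 2 of hemin-treated colonoids labelled KO, against 3506 to 9538 elsewhere. Among 3 colon markers, *Hoxb13*, a homeobox gene of the distal colon, had 0 fragments in all 6 control libraries and 104 to 134 FPKM in all 6 libraries labelled KO. *Car1* and *Muc2* were not called between genotypes with vehicle (log2 differences -0.69 and -0.50). *Muc2*, the goblet cell mucin, was at 57.3 to 60.8 FPKM in controls with hemin and 5.54 to 6.92 in those labelled KO, where hemin lowered it 11.3-fold (log2 difference -3.32, adjusted p = 1.90e-09). *Car1* rose with hemin in both genotypes (1.18 and 1.11).

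Upstream sequences are shown for 3 AhR-responsive genes of the set that hemin raised in controls, because they hold the core bound by AhR and ARNT. RefSeq entries (GRCm38.p6) matched 78 of the 102 genes, *Ahr* not among them. Each line is the 200 bases before the RefSeq start on the gene's own strand, 5′ to 3′, with each GCGTG, or CACGC where it lies on the other strand, in capitals. The windows are chr9:57697413-57697612 on the plus strand for *Cyp1a1*, chr17:79715062-79715261 on the minus strand for *Cyp1b1* and chr13:74292332-74292531 on the minus strand for *Ahrr*, and no annotated exon overlaps them.
*Cyp1a1*: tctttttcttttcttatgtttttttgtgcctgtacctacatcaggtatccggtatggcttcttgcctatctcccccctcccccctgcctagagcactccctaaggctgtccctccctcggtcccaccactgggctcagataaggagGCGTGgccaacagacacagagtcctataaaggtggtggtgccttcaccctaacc
*Cyp1b1*: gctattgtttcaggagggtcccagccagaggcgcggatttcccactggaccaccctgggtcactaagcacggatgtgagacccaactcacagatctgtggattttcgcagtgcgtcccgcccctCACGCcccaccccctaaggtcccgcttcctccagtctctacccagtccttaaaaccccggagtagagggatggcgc
*Ahrr*: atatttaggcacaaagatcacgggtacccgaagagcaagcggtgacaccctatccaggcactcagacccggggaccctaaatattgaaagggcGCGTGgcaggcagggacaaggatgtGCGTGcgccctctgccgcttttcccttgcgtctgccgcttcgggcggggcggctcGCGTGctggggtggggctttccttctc
The core lies 54 bases before the start in *Cyp1a1*, 76 in *Cyp1b1*, and 107, 82 and 27 in *Ahrr*. *Tiparp* has 1 core 170 bases before its RefSeq start. Its 200-base window is not shown, because annotated exons of *4931440P22Rik* and of *Tiparp* itself overlap it. Over the whole RefSeq windows, which begin further upstream and end just after the start, the core was found on either strand at 35.2% of 27025 genes and at 18 of the 78 matched genes of the set, or 23.1%. The longer TNGCGTG was found at 5.84% of genes and in the set at *Ahrr* and *Cyp2c68*. TGACNNNGC, the core of the antioxidant response element, was found at 14.0% of genes and 7 of the set, among them *Cyp2c65*, *Cyp2j6* and *Cyp4f14*. A match of letters does not show a bound site, and the data hold no binding measurement.

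Of the 102 genes, 28 reached 1 FPKM in at least 3 libraries and entered the test. FPKM is fragments per kilobase of gene, scaled to the fragments of the library, so it can be set side by side between genes. The other 74 comprised 42 with no more than 3 fragments in any library, of which 17 had 0 throughout, and 32 in between. A mean of at least 1 FPKM in each of the 4 groups was found for 19 genes. Another 4 would have missed the filter without a single group (*Cyp1b1* without hemin-treated controls, *Cyp2w1* without vehicle-treated controls, *Cyp2b10* and *Cyp2f2* without vehicle-treated colonoids labelled KO), so their difference from other groups was partly set by the filter. For these 4 the adjusted p-values below are from the limma fit with no filter on low values. Differences below are on the log2(FPKM + 1) scale, which understates the change of low genes. Calls needed an adjusted p under 0.05 together with a log2 difference beyond 1 in either direction. Folds are ratios of mean FPKM.

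**Figure D1:**
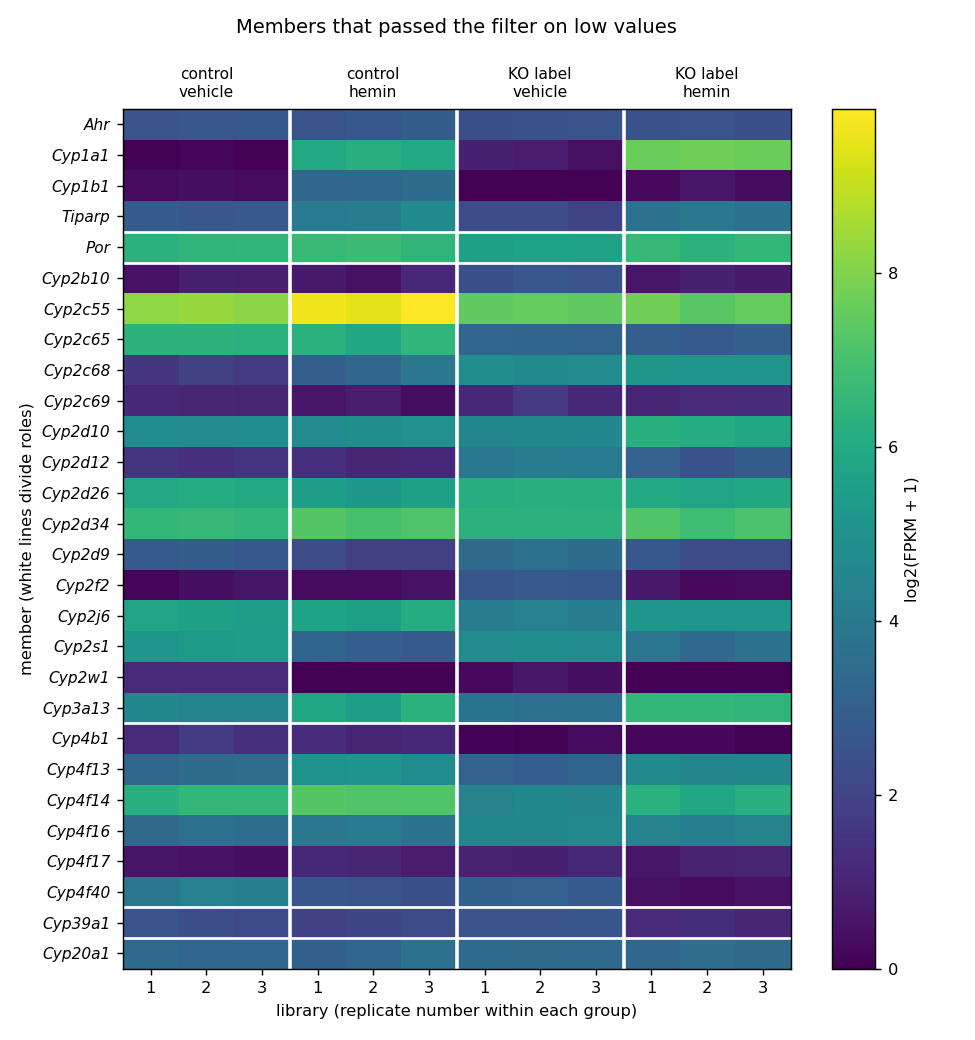
Level of the 28 tested genes (rows, ordered by role) in each of the 12 libraries (columns, by group and replicate number), as log2(FPKM + 1). *Cyp2c55* has the highest value in the 9 libraries outside the hemin-treated group labelled KO, where *Cyp1a1* (198 to 215 FPKM) lies beside it (160 to 213 FPKM).

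Hemin raised *Cyp1a1*, *Cyp3a13*, *Cyp4f13* and *Tiparp* in both genotypes and lowered *Cyp2s1* and *Cyp4f40* in both. In controls 10 of the 28 were called (35.7%, against 8.11% of all 12740 genes tested), 7 higher and 3 lower (2.17% and 5.93% of all genes). In colonoids labelled KO 13 were called (46.4%, against 12.9%), 6 higher and 7 lower (4.87% and 8.07% of all genes). The median log2 difference over the 28 was 0.08 in controls, against -0.01 over all genes, and within 0.01 of 0 in those labelled KO for both, so the set did not move one way as a whole. Vehicle and hemin libraries did not overlap for 17 of the 28 in controls (52.4% of all genes) and for 22 in those labelled KO (74.4%). Summed FPKM of 6 crypt stem and proliferation genes was 91.0 to 102 with vehicle and 31.1 to 38.7 with hemin in controls, and 133 to 137 and 46.2 to 56 in those labelled KO. In that list 3 of 6 were called lower in controls and 5 of 6 in those labelled KO, and its part in the CYP results was not tested. Fewer cells of a type and less RNA per cell cannot be told apart in these bulk samples.

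**Figure D2:**
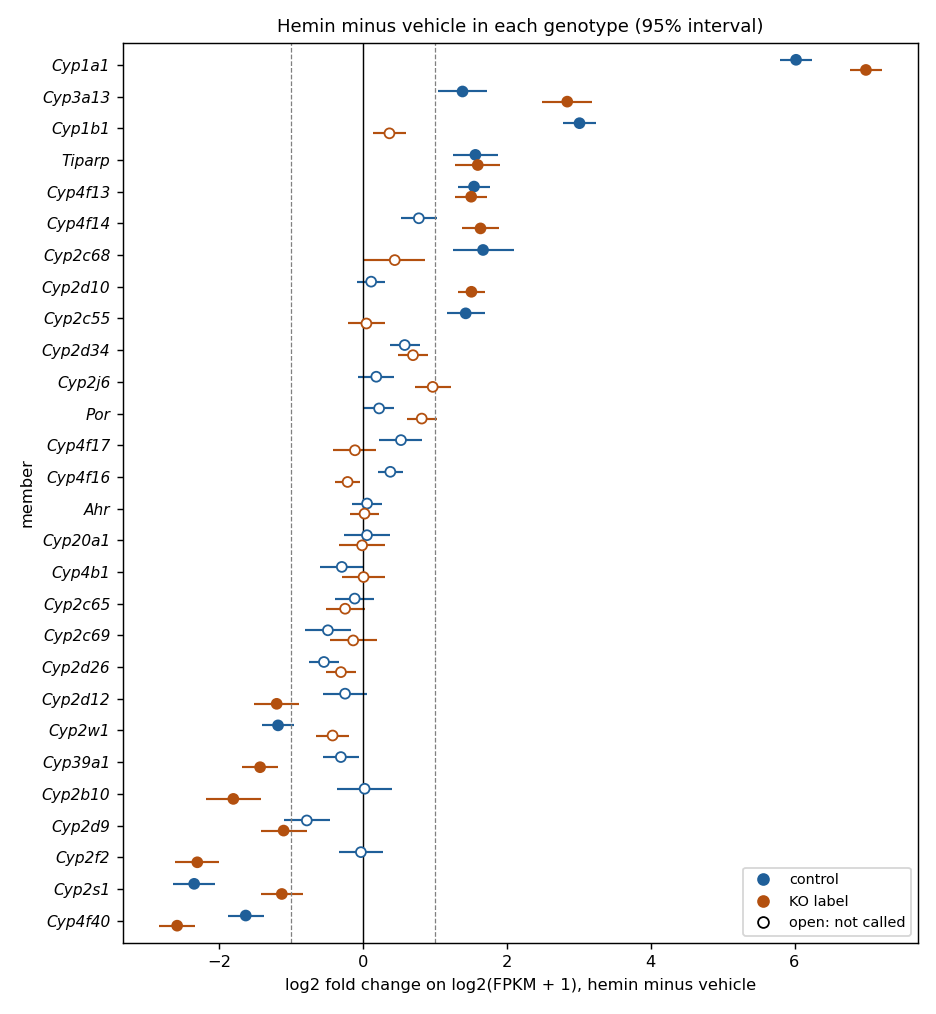
Log2 difference of hemin minus vehicle on log2(FPKM + 1) for the 28 tested genes (rows), in control colonoids (blue) and colonoids labelled KO (orange). Bars are 95% intervals from the fit with 3 libraries per group, filled points are called and dashed lines mark the fold threshold. *Cyp1a1* stands at 6.02 and 6.99, while *Cyp1b1* stands at 3.01 and 0.37.

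Between genotypes, colonoids labelled KO had less *Cyp2c65*, *Cyp4f14* and *Cyp4f40* and more *Cyp2c68* and *Cyp2d12* under either treatment. With vehicle 10 of the 28 were called (35.7%, against 6.8% of all genes tested), 5 higher and 5 lower (3.53% and 3.27% of all genes). With hemin 9 were called (32.1%, against 6.01%), 4 higher and 5 lower (3.1% and 2.91% of all genes). Control libraries and those labelled KO did not overlap for 27 of the 28 with vehicle (57.5% of all genes) and 19 with hemin (40.9%). The response to hemin differed between genotypes for 9 of the 28 (32.1%, against 5.13%), with a higher response in those labelled KO for 3 and a lower one for 6 (2.57% and 2.56% of all genes). *Hoxb13* and, with less of each in those labelled KO, the receptor genes *Nr1h4* and *Pparg* moved with genotype beside these genes (log2 differences with vehicle 6.79, -1.63 and -1.29). So did *Cdx2*, an epithelial transcription factor (202 and 48.7 FPKM with vehicle in controls and in those labelled KO), and genes of colonocyte differentiation. Of 7 such genes 4 were called between genotypes with vehicle, 3 higher and 1 lower, and 3 with hemin, 2 higher and 1 lower. Mean FPKM with vehicle in controls and in those labelled KO was 44.0 and 426 for *Aqp8*, a water channel, 1.87 and 58.0 for *Car4*, a carbonic anhydrase, and 499 and 84.3 for *Guca2a*, which encodes guanylin. The summed FPKM of the 7 was 744 to 858 in controls and 776 to 818 in those labelled KO with vehicle, and 943 to 1043 and 826 to 1280 with hemin. Hemin changed 1 of the 7 in controls and 3 in those labelled KO, and the response differed for 4. The part of these genes in the CYP results was not tested. A single culture or animal behind each genotype cannot be told apart from the genotype itself. All told, 21 of the 28 were called in at least 1 of the 5 comparisons (21.3% of all genes tested), and 7 in none. Without the fold threshold, an adjusted p under 0.05 was reached by 18 of the 28 with hemin in controls (49.9% of all genes), 20 with hemin in those labelled KO (60.4%), 21 between genotypes with vehicle (34.2%), 19 with hemin (34.4%) and 18 for the interaction (23.8%).

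**Figure D3:**
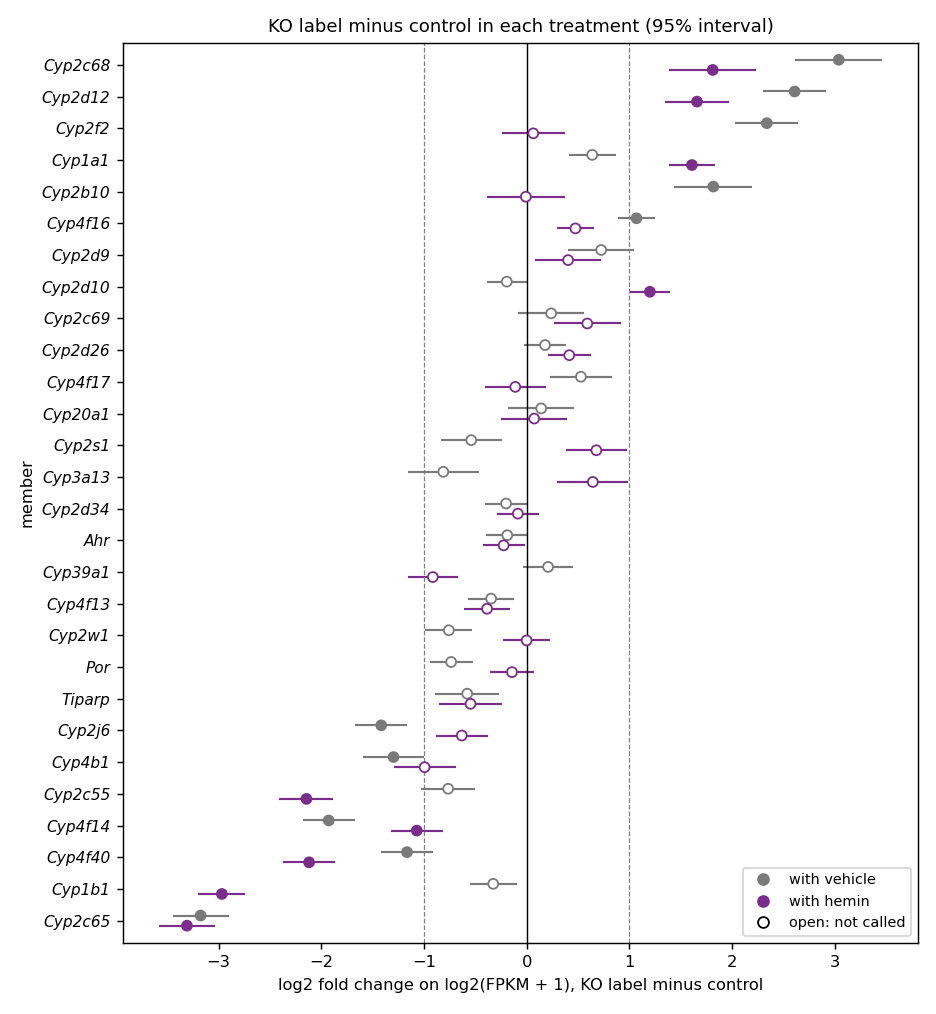
Log2 difference of colonoids labelled KO minus control on log2(FPKM + 1) for the 28 tested genes (rows), with vehicle (grey) and with hemin (purple). Bars are 95% intervals (3 libraries per group) and filled points are called. *Cyp2c65* lies at -3.18 and -3.31, whereas *Cyp2f2* lies at 2.34 with vehicle and 0.06 with hemin.

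Within the AhR axis, *Cyp1a1* went from near 0 to one of the highest levels of the set, and *Cyp1b1* and *Ahrr* rose with hemin in controls. *Cyp1a1*, the enzyme that oxidizes polycyclic aromatic hydrocarbons, was at 0.0218, 0.105 and 0 FPKM in control libraries with vehicle and at 63.4, 71.6 and 65.1 with hemin. In those labelled KO it was at 0.856, 0.685 and 0.362 with vehicle and 198, 215 and 204 with hemin. The 4 groups did not overlap. The hemin-treated libraries held 2017 to 14097 fragments of the gene and the control libraries with vehicle 0 to 5. The rise was 1579-fold in controls, with a 95% counting interval of 674 to 4000, and 324-fold in those labelled KO (adjusted p = 5.32e-11 and 7.13e-12). With hemin *Cyp1a1* was 3.08-fold higher in colonoids labelled KO than in controls (log2 difference 1.61 ± 0.10, SE, adjusted p = 5.21e-07). With vehicle it was 15.0-fold higher (counting interval 6.14 to 38.9), a log2 difference of 0.64 that was not called. Whether the response differed between genotypes depended on the scale. On log2(FPKM + 1) the difference of responses was 0.97 (adjusted p = 7.23e-04), on log2(FPKM + 0.1) -0.75 (adjusted p = 0.211) and with limma-voom on fragments -2.37 (adjusted p = 0.0358).

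*Cyp1b1*, an AhR target that metabolizes estrogens, retinoids and arachidonic acid, reached its highest level in hemin-treated controls instead. Control libraries held 0.248, 0.331 and 0.227 FPKM with vehicle and 8.67, 8.79 and 10.2 with hemin, a rise of 34.4-fold (log2 difference 3.01 ± 0.11, adjusted p = 9.07e-08 with no filter). Those labelled KO held 0.0119, 0 and 0.0232 FPKM with vehicle (1, 0 and 2 fragments) and 0.176, 0.497 and 0.258 with hemin (13, 60 and 19 fragments). That was a rise of 26.5-fold with a counting interval of 9.82 to 146, which takes in the fold of controls, and a log2 difference of 0.37 that was not called. All hemin-treated libraries labelled KO thus lay below every hemin-treated control library, and they overlapped control libraries with vehicle. With hemin the gene was 29.7-fold lower in colonoids labelled KO (log2 difference -2.97 ± 0.11, adjusted p = 5.92e-08), in the opposite direction to *Cyp1a1* in the same libraries. The response to hemin differed by -2.64 (adjusted p = 6.44e-06), but with limma-voom on fragments by -0.61 (adjusted p = 0.672).

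*Ahrr*, the repressor, was below the filter in every library and is given in fragments. Control libraries held 7, 10 and 15 with vehicle and 66, 76 and 80 with hemin. Those labelled KO held 0, 2 and 0 with vehicle and 2, 2 and 11 with hemin. Hemin-treated controls stood above all other libraries, as for *Cyp1b1*. In limma-voom over the 20117 genes with at least 10 fragments, *Ahrr* was called higher with hemin in controls (log2 difference 3.26, adjusted p = 2.40e-05) and lower in those labelled KO than in controls with hemin (-4.82, adjusted p = 8.39e-06) and with vehicle (-3.70, adjusted p = 4.37e-03). Its difference with hemin in those labelled KO was 2.14 (adjusted p = 0.0758), and the responses differed by -1.12 (adjusted p = 0.540). *Cyp1a2*, the remaining member of the Cyp1 family, had at most 6 fragments in any library.

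*Tiparp* rose by the same measure in both genotypes. It was at 6.37, 5.45 and 5.69 FPKM with vehicle and 16.2, 17.4 and 24.9 with hemin in controls, and at 3.90, 3.77 and 3.08 and then 12.2, 14.0 and 12.3 in those labelled KO. The vehicle and hemin libraries were separate in each genotype. Log2 differences were 1.56 ± 0.14 and 1.59 ± 0.14 (adjusted p = 6.01e-06 and 2.82e-06), and their difference was 0.03 with a 95% interval of -0.41 to 0.47. *Ahr* itself stayed between 4.33 and 6.60 FPKM in all 12 libraries and was called in no comparison. Its hemin intervals were -0.15 to 0.26 in controls and -0.19 to 0.22 in those labelled KO.

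**Figure D4:**
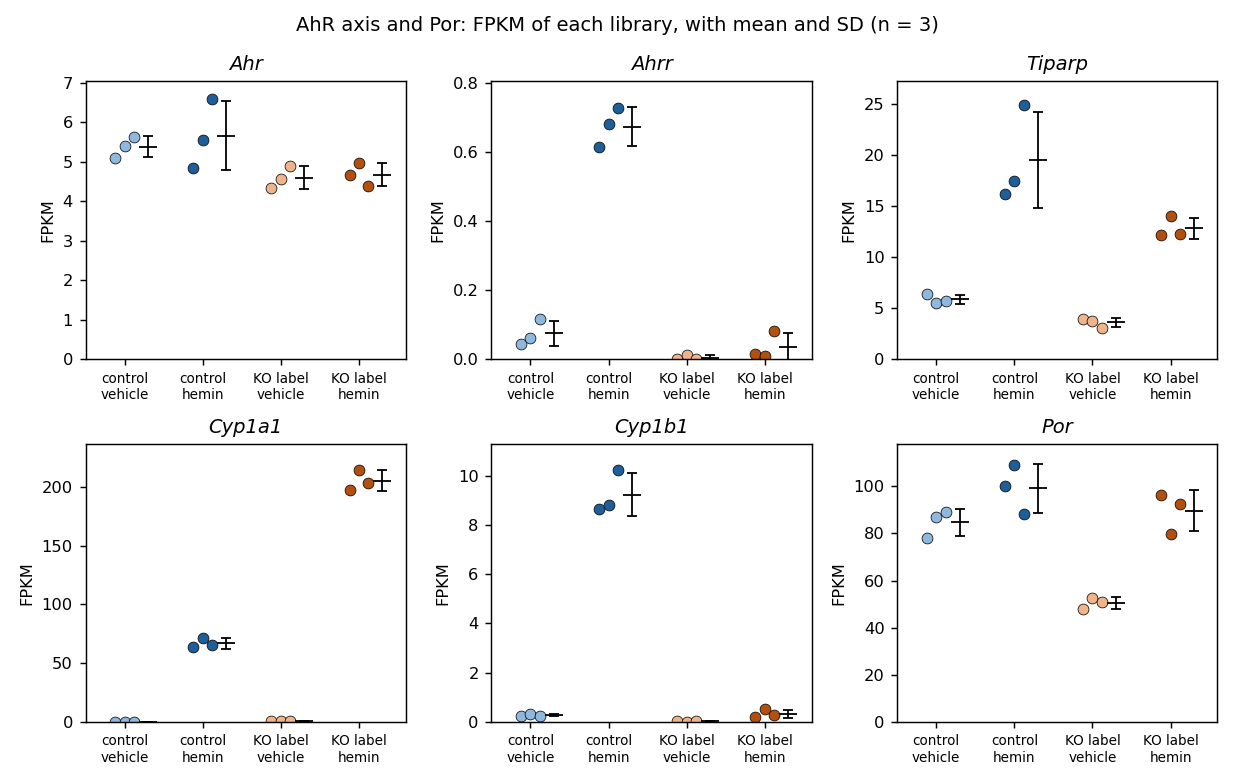
FPKM of *Ahr*, *Ahrr*, *Tiparp*, *Cyp1a1*, *Cyp1b1* and *Por* in each library (points, linear axes from 0), with mean and SD of the 3 libraries of each group beside them. Hemin-treated colonoids labelled KO had the most *Cyp1a1* (198 to 215 FPKM) and hemin-treated controls the most *Cyp1b1* (8.67 to 10.2 FPKM) and *Ahrr*.

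The other genes of the AhR pathway were read from 2 lists. Among its partners *Arnt*, *Arnt2*, *Ptges3*, *Hsp90aa1* and *Hsp90ab1*, limma called none of 5 with hemin in controls (4 at an unadjusted p under 0.05, 1 by limma-voom) or in those labelled KO (2 and 0), and none between genotypes with vehicle (2 and 1). With hemin *Arnt2*, a paralog of *Arnt*, was lower in those labelled KO (log2 difference -1.45). It passed the filter through hemin-treated controls alone, and its adjusted p with no filter was 6.07e-07. *Arnt2* was at 0.653 to 0.791 FPKM in controls with vehicle, 1.47 to 1.97 in hemin-treated controls and at most 0.0160 in any library labelled KO. Its genotype difference with vehicle was -0.78 (adjusted p = 4.02e-05 with no filter), under the fold threshold on this scale. *Arnt* was between 7.23 and 11 FPKM in all 12. Of the non-CYP battery (*Nqo1*, *Aldh3a1*, *Ugt1a6a*, *Ugt1a6b*, *Gsta1* and *Gsta2*) 4 were tested. With hemin 1 of the 4 was called higher in controls and 3 in those labelled KO, and none lower (8.11% and 12.9% of all genes tested were called). By limma-voom 3 of the 4 were called in controls and 4 in those labelled KO. *Aldh3a1* and *Ugt1a6b* were under the filter. *Aldh3a1* held 10, 13 and 10 fragments in controls with vehicle and 0, 2 and 0 with hemin. In those labelled KO it held 1, 1 and 3 and then 6, 1 and 3. Between genotypes 2 were lower in those labelled KO with vehicle, *Nqo1* and *Gsta1*, and 2 higher with hemin, *Gsta1* and *Gsta2* (6.8% and 6.01% of all genes). The response was greater in those labelled KO for 3 (5.13%). *Nqo1*, a quinone reductase, rose by 3.06 and 4.71 on the log2 scale, while *Gsta1*, a glutathione transferase, rose by 5.04 in those labelled KO and differed by 0.67 in controls. These genes are also targets of NRF2, the antioxidant transcription factor.

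*Por* was among the 5 most abundant genes of the set in every group. Control libraries had 78.1, 86.9 and 89.0 FPKM with vehicle and 100, 109 and 88.4 with hemin, and those labelled KO had 47.8, 52.7 and 50.8 and then 96.5, 79.8 and 92.7. Vehicle-treated libraries labelled KO lay below all 9 others. Neither the hemin difference in those labelled KO (log2 difference 0.81 ± 0.09, adjusted p = 2.48e-05) nor the genotype difference with vehicle (-0.74 ± 0.09, adjusted p = 1.17e-04) passed the fold threshold. Of 7 other redox partners in the table, *Cyb5a*, the cytochrome b5 that donates electrons to several CYPs, was called higher with hemin in both genotypes (1.21 and 1.29), and *Pgrmc1*, a heme-binding partner of CYPs, in those labelled KO (1.15, against 0.62 in controls, not called). Between genotypes limma called none with vehicle (4 at an unadjusted p under 0.05) or with hemin (5), nor did limma-voom.

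The Cyp2 family supplied 14 of the 28 tested genes and Cyp3 supplied 1. *Cyp2c55*, an arachidonic acid hydroxylase of the colon, was the most abundant CYP in 3 of the 4 groups. It was at 296, 330 and 289 FPKM in controls with vehicle and 820, 712 and 944 with hemin, a rise of 2.71-fold (log2 difference 1.43 ± 0.12, adjusted p = 3.46e-06). In those labelled KO it was at 176, 184 and 176 with vehicle and 213, 160 and 185 with hemin, and these libraries overlapped (0.05, 95% interval -0.22 to 0.31). The responses differed by -1.38 (adjusted p = 1.80e-04), and with hemin the gene was 4.44-fold lower in those labelled KO (adjusted p = 1.63e-07).

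Its neighbor *Cyp2c65*, also an eicosanoid-forming enzyme, was called between genotypes and not with hemin. Control libraries had 82.5, 83.2 and 77.9 FPKM with vehicle and 79.2, 59.2 and 89.0 with hemin. Those labelled KO had 7.82 to 8.41 with vehicle and 6.0 to 7.09 with hemin, which did not overlap. The hemin differences were -0.12 in controls and -0.25 in those labelled KO (adjusted p = 0.456 and 0.101). The gene was 10.0-fold lower in those labelled KO with vehicle and 11.4-fold lower with hemin (log2 differences -3.18 ± 0.12 and -3.31 ± 0.12, adjusted p = 9.19e-09 and 5.78e-09). *Cyp2c68* went the other way. It was at 1.93, 2.88 and 2.19 FPKM in controls with vehicle, 7.02, 8.58 and 14.2 with hemin, and 24.8 to 37.0 in the 6 libraries labelled KO. The 6 control libraries all lay below the 6 labelled KO, with log2 differences of 3.04 with vehicle and 1.81 with hemin (adjusted p = 4.00e-07 and 2.76e-05). Hemin raised it in controls by 1.67 (adjusted p = 3.60e-05), against 0.44 in those labelled KO, and the difference of -1.23 fell to -0.96, under the fold threshold, without replicate 3 of hemin-treated controls. *Cyp2c69*, at 0.290 to 2.09 FPKM, was under the fold threshold in each comparison. Its libraries did not overlap between vehicle and hemin in controls (2.19-fold lower with hemin, log2 difference -0.49, adjusted p = 0.0168) or between genotypes with hemin (2.5-fold higher in those labelled KO, 0.59, adjusted p = 9.34e-03).

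These genes lie side by side on chromosome 19 (39007019 to 40187333, mm10), where 14 genes of the set are found, 4 of them tested and 6 with no more than 3 fragments in any library. The sequences overlap too. Of the 50-base stretches in its transcripts, *Cyp2c69* shared 54.3% with another gene, *Cyp2c68* 43.3% and *Cyp2c65* 20.6%, so the division of reads among them is uncertain. In the whole set 11 of the 28 tested genes shared at least 5%, and 17 less.

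The Cyp2d genes, relatives of a human drug-metabolizing enzyme, fall in 8 neighbors on chromosome 15 (82370527 to 82794294), of which 5 were tested. Their members took different courses. *Cyp2d10* rose with hemin in colonoids labelled KO, from 22.4, 23.3 and 23.5 FPKM to 75.3, 69.3 and 58.6, a log2 difference of 1.51 ± 0.09 (adjusted p = 1.28e-07). In controls its libraries spanned 26.0 to 30.7 FPKM over both treatments and overlapped (0.11, 95% interval -0.08 to 0.30), and the responses differed by 1.39 (adjusted p = 2.33e-05). *Cyp2d12* was at 1.11 to 1.83 FPKM in all 6 control libraries, at 14.6, 16.6 and 15.3 in those labelled KO with vehicle and at 7.64, 4.69 and 6.50 in those with hemin. It was 9.10-fold higher in those labelled KO with vehicle and 4.90-fold higher with hemin (adjusted p = 1.06e-07 and 4.66e-06), and hemin lowered it there by a log2 difference of -1.20 (adjusted p = 2.41e-05). *Cyp2d9* was likewise lower with hemin in those labelled KO (-1.11, adjusted p = 5.91e-05), from 9.60 to 11.6 FPKM to 3.75 to 5.62, and by -0.78 in controls, not called. The 2 most abundant on average over the 12 libraries, *Cyp2d34* (79.7 to 149 FPKM) and *Cyp2d26* (38.1 to 76.6 FPKM), were called in no comparison. With hemin *Cyp2d34* was nonetheless higher in both genotypes (0.58 and 0.69) and *Cyp2d26* lower (-0.55 and -0.31). In hemin-treated colonoids labelled KO the mean of *Cyp2d10* (67.8 FPKM) was above that of *Cyp2d26* (58.6 FPKM). Shared 50-base stretches made up 35.8% of *Cyp2d10*, mostly with *Cyp2d11*, and 21.8% of *Cyp2d9*, against 7.61% of *Cyp2d12*.

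Of the other Cyp2 genes, *Cyp2b10* and *Cyp2f2* were each present at more than 1 FPKM on average in vehicle-treated colonoids labelled KO and in no other group. *Cyp2b10*, the classical target of the nuclear receptor CAR, had 4.26, 5.42 and 4.98 FPKM there and 0.360 to 1.18 in the other 9 libraries. *Cyp2f2*, known for activating naphthalene in airway club cells, had 5.26, 5.77 and 5.63 there and 0.120 to 0.617 elsewhere. For both genes that group stood clear of the other groups, which overlapped. Both genes passed the filter through that group, and their adjusted p-values are from the fit with no filter. Both were higher in those labelled KO with vehicle (log2 differences 1.82 and 2.34, adjusted p = 6.21e-05 and 1.86e-06) and fell with hemin there by 1.81 and 2.31 (adjusted p = 3.44e-05 and 1.24e-06), while their intervals in controls were -0.36 to 0.40 and -0.34 to 0.28. The differences of response were -1.83 and -2.28 (adjusted p = 1.37e-03 and 8.89e-05). *Nr1i3*, which encodes CAR, was at no more than 0.333 FPKM in any library.

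*Cyp2s1*, an extrahepatic CYP of epithelia, fell with hemin in both genotypes. It went from 35.4, 40.9 and 41.4 FPKM to 8.15, 6.66 and 5.96 in controls and from 26.0, 27.6 and 26.3 to 13.9, 9.35 and 12 in those labelled KO. The log2 differences were -2.35 ± 0.13 and -1.13 ± 0.13 (adjusted p = 2.26e-07 and 2.75e-05), and they differed from each other by 1.22 (adjusted p = 9.07e-04). Without replicate 2 of the hemin-treated libraries labelled KO, the fall there was -0.99 and no longer called. *Cyp2w1*, known from fetal gut and colon tumors, had 31, 32 and 28 fragments in controls with vehicle, 5, 14 and 8 in those labelled KO with vehicle, and 0 in all 6 hemin-treated libraries. At a floor of 3 fragments per library it was at least 7.48-fold lower with hemin in controls (log2 difference -1.18, adjusted p = 3.12e-06 with no filter) and at least 2.92-fold lower in those labelled KO, which was not called. *Cyp2j6*, an arachidonic acid epoxygenase of the intestine, was at 54.4, 47.7 and 45.8 FPKM in controls with vehicle and 16.7, 19.4 and 17.3 in those labelled KO, 2.77-fold lower (adjusted p = 2.86e-06). With hemin it was at 48.6 to 68.2 and 35.6 to 35.9 FPKM, and the genotype difference of -0.63 was not called. Hemin raised *Cyp2j6* 2.01-fold in those labelled KO, without overlap. This log2 difference of 0.97 (adjusted p = 2.77e-05) was just under the fold threshold, against 0.18 (adjusted p = 0.209) in controls.

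*Cyp3a13* was the only one of 9 Cyp3a genes to be tested, the other 8 having no more than 3 fragments in any library. Cyp3a enzymes are the main drug-oxidizing CYPs of the small intestine and liver. *Cyp3a13* rose with hemin from 23.4, 20.8 and 20.8 FPKM to 55.3, 45.1 and 78.1 in controls and from 13.3, 11.3 and 11.2 to 93.1, 92.1 and 88.5 in those labelled KO. Those labelled KO thus lay below controls with vehicle and above them with hemin, although neither genotype difference was called (-0.81 and 0.64). The log2 differences with hemin were 1.38 ± 0.16 and 2.84 ± 0.16 (adjusted p = 3.26e-05 and 8.93e-08), and the response was greater by 1.46 in those labelled KO (adjusted p = 8.01e-04). *Nr1i2*, which encodes PXR, the nuclear receptor that regulates Cyp3a genes in liver and gut, was between 23.1 and 33.5 FPKM and was not called. In a list of 18 nuclear receptors that regulate CYPs, 15 were tested, and limma called none with hemin in controls (7 at an unadjusted p under 0.05, 1 by limma-voom) or in those labelled KO (9 and 2). Between genotypes 2 were lower in those labelled KO with vehicle, *Nr1h4* and *Pparg*, and 3 with hemin, *Nr1h4*, *Ppara* and *Rarg*, with none higher (6.8% and 6.01% of all genes tested were called). *Ppara* passed the filter through hemin-treated controls alone, and its difference of -1.09 had an adjusted p of 1.29e-03 with no filter. The interaction was called for none (7 at an unadjusted p under 0.05, 0 by limma-voom).

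The Cyp4 family, the fatty acid and leukotriene hydroxylases, had 20 genes in the set and 6 that were tested, 5 of them in the Cyp4f cluster on chromosome 17 (32468462 to 32947402). *Cyp4f13* rose alike in both genotypes, from 8.90, 10.1 and 10.5 FPKM to 31.8, 33.5 and 26.7 in controls and from 7.62, 6.84 and 8.10 to 25.7, 21.7 and 22.1 in those labelled KO. Its log2 differences were 1.54 and 1.5, each with an SE of 0.10 (adjusted p = 6.55e-07 and 3.98e-07), with an interval of -0.36 to 0.28 for the difference between them. Its neighbor *Cyp4f14*, which inactivates leukotriene B4, was at 76.0, 92.7 and 91.4 FPKM in controls with vehicle and 154, 146 and 146 with hemin, and at 20.6, 23.8 and 21.6 and then 78.5, 58.3 and 75.3 in those labelled KO. Hemin raised it 3.22-fold in those labelled KO (adjusted p = 5.04e-07), against 1.71-fold in controls, which was not called at a log2 difference of 0.77. It was 3.94-fold lower in those labelled KO with vehicle and 2.10-fold lower with hemin (adjusted p = 2.45e-07 and 2.95e-05). The latter difference was -0.94, under the fold threshold, without replicate 2 of the hemin-treated libraries labelled KO.

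*Cyp4f40*, also in the cluster, differed between all 4 groups, which did not overlap. It was at 14.5, 19.2 and 18.1 FPKM in controls with vehicle and 5.28, 5.01 and 4.28 with hemin, and at 7.47, 7.60 and 6.23 and then 0.374, 0.252 and 0.413 in those labelled KO. Hemin lowered it 3.55-fold in controls and 20.5-fold in those labelled KO (log2 differences -1.63 ± 0.11 and -2.59 ± 0.11, adjusted p = 9.48e-07 and 1.71e-08). The responses differed by -0.95 (adjusted p = 1.54e-03), which was not called. The genotype differences were -1.17 with vehicle and -2.12 with hemin (adjusted p = 1.34e-05 and 1.22e-07). *Cyp4f16* was higher in those labelled KO with vehicle, at 22.2, 23.0 and 24.2 FPKM against 9.71, 11.1 and 10.7 (1.07 ± 0.08, adjusted p = 1.63e-06), and by 0.48 with hemin, not called. *Cyp4f17*, at 0.301 to 1.19 FPKM, was under the fold threshold on the log2(FPKM + 1) scale in each comparison. Its libraries did not overlap between vehicle and hemin in controls (2.61-fold higher with hemin, log2 difference 0.53, adjusted p = 7.70e-03) or between genotypes with vehicle (2.60-fold higher in those labelled KO, 0.53, adjusted p = 0.0108), and its interaction was -0.64 (adjusted p = 0.0333). On chromosome 4, *Cyp4b1*, which oxidizes fatty acids and activates some protoxins, had 28 to 88 fragments in each control library and 0 to 9 in each labelled KO, and was 16.4-fold lower with vehicle (counting interval 9.29 to 32.7, adjusted p = 2.41e-05). With hemin it was 11.2-fold lower in those labelled KO (counting interval 5.77 to 19.3). That log2 difference of -0.99 (adjusted p = 1.98e-04) was just under the fold threshold.

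Among the families that act on sterols, steroids, bile acids and vitamin D, 1 of 14 genes was tested. This was *Cyp39a1*, an oxysterol hydroxylase. It was at 4.98, 4.24 and 3.69 FPKM in controls with vehicle and 2.79, 3.21 and 3.84 with hemin, which overlapped. In those labelled KO it fell from 5.13, 4.95 and 5.23 to 1.27, 1.45 and 1.07, by 1.43 on the log2 scale (adjusted p = 1.08e-06), and the responses differed by -1.12 (adjusted p = 4.52e-04). *Cyp20a1*, which has no established substrate, was at 7.32 to 12.2 FPKM in all libraries and was not called.

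The sum over the 98 CYP genes rose with hemin and was lower in those labelled KO. It was 837 ± 35.5 FPKM (SD, n = 3) in controls with vehicle, 1545 ± 168 with hemin, and 566 ± 12.6 and 976 ± 62.4 in those labelled KO. The libraries of the 4 groups did not overlap in this sum. Summed FPKM of the 7 epithelial markers was 8036 to 8972 in controls and 5591 to 5634 in those labelled KO with vehicle. With hemin it was 7827 to 9843 and 7261 to 8468. A link between the marker and CYP sums was not tested. What the CYP sum was made of differed as well. *Cyp2c55* made up 36.4% of it in controls with vehicle and 53.3% with hemin, but 31.6% and 19% in those labelled KO. The Cyp1 family went from 0.0368% to 4.98% in controls and from 0.114% to 21.2% in those labelled KO. The subfamily that gained most was Cyp2c in controls, from 390 to 912 FPKM, and Cyp1 in those labelled KO, from 0.646 to 206. The Cyp4f sum was 125 and 199 FPKM in controls and 61.1 and 115 in those labelled KO.

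**Figure D5:**
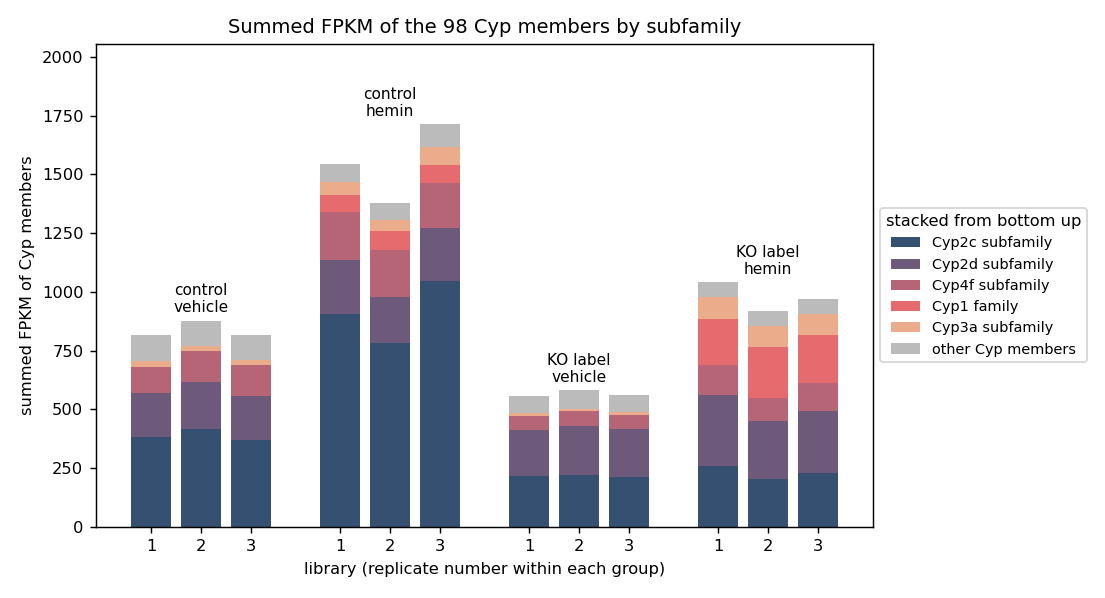
Summed FPKM of the 98 CYP genes in each library, stacked by subfamily (15 Cyp2c, 8 Cyp2d, 9 Cyp4f, 3 Cyp1, 9 Cyp3a and 54 other genes). The sum lies at 815 to 878 in controls with vehicle, 1377 to 1713 in controls with hemin, and 557 to 580 and 917 to 1042 in those labelled KO.

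Genes under the filter were tested with limma-voom on fragments, an analysis chosen after the data had been seen. Of the 74, 26 had at least 10 fragments in all. Hemin changed 9 of them in controls and 7 in those labelled KO (13.8% and 20.8% of the 20117 genes tested), and the genotypes differed for 13 with vehicle and 11 with hemin (12.2% and 11%). The response differed for 4 (6.81%). *Cyp26b1*, which clears retinoic acid, held 63, 72 and 78 fragments in controls with vehicle, 7, 12 and 15 with hemin, and 15, 11 and 10 and then 11, 42 and 21 in those labelled KO. Controls with vehicle stood above all the rest, and the fall with hemin in controls (log2 difference -2.20, adjusted p = 2.58e-04) and the genotype difference with vehicle (-2.62, adjusted p = 4.95e-05) were called. The difference with hemin in those labelled KO was 0.89 (adjusted p = 0.0974), and the interaction of 3.09 was called (adjusted p = 1.54e-03). *Cyp26a1* and *Cyp26c1* had at most 5 fragments.

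Several of these sparse genes separated the genotypes. *Cyp2c70*, which makes muricholic acids in mouse liver, had 0 fragments in all 6 control libraries and 17 to 29 in each labelled KO. *Cyp11a1*, the side-chain cleavage enzyme that starts steroid synthesis, had at most 1 fragment in any control library and 9 to 21 in each labelled KO. *Cyp4f39* had at most 1 and 9 to 14. All 3 were called between genotypes with vehicle and with hemin. *Cyp2c66* went the other way, with 21, 22 and 12 fragments in controls with vehicle, 2, 1 and 2 with hemin and at most 1 in those labelled KO. *Cyp8b1*, a bile acid hydroxylase, was found only in hemin-treated controls, with 4, 5 and 9 fragments and 0 in the other 9 libraries, which allows up to 3 in each of those. *Cyp2j9* was lower with hemin in those labelled KO, at 3, 4 and 9 fragments against 21 to 44 in the other groups (adjusted p = 8.96e-04).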

How the data were processed

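Poly-A RNA of 12 colonoid libraries was sequenced by Novogene. The authors deposited FPKM for 54532 genes with gene coordinates and lengths. According to the submitters' processing notes, fastp, HISAT2 2.0.5, featureCounts 1.5.0-p3 and mm10 were used. How these were combined, and whether counting used strand, is not given in the sources used here, so overlapping and antisense genes cannot be separated. The deposited FPKM carry a scaling between libraries, as the median-of-ratios factor was 1.0087 in each of them. All values were whole multiples, within 0.01, of the value of 1 fragment, and fragments were recovered from them with gene length. At most 3 fragments in a library was taken as the floor. Intervals on such counts cover counting error only.

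Groups and replicate numbers came from the sample labels. The genotype field of replicate 3 labelled KO with hemin is written differently from the other libraries labelled KO, and its title was followed. Libraries of a group differed by more than sampling noise (chi-square per degree of freedom 1.93 to 43.1 over 12 pairs), so all were counted. Genes with FPKM of at least 1 in at least 3 libraries were fitted on log2(FPKM + 1) with limma 3.58.1 in R 4.3.3, with 1 mean per group, an intensity trend and 8 residual degrees of freedom before moderation. All adjusted p-values are Benjamini-Hochberg values of limma over every gene tested. Comparisons were hemin against vehicle in each genotype, genotype within each treatment, and their interaction. Comparisons share groups, so their results are not independent. The fit was tested on simulated data.

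Genes of the set were named with values where they were called in any comparison, were *Por*, *Ahr*, *Ahrr* or *Tiparp*, or were among the 5 most abundant, and otherwise within ranges of their family. Genes under the filter that are named were chosen after their values were seen. Members and lists were chosen with earlier results of these data known. In the lists of AhR partners and of colon markers 1 gene each is not reported here. Motifs and shared 50-base stretches were found with Python 3.11.15 in RefSeq promoters (GRCm38.p6) and GENCODE M21 transcripts, in which 92 of the 102 genes had the same start and end. Figures were drawn with matplotlib 3.10.9. Alternatives were a pseudocount of 0.1, no filter, a mean FPKM of at least 5, TPM with and without *Gm23935*, a replicate block, no trend, the adjusted p alone, only the groups compared, limma-voom on fragments, and each library left out. Added after seeing the data were limma-voom on genes with at least 10 fragments in total and a fit without the 3 libraries of highest *Gm23935*.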

Additional observations from a re-analysis of the deposited data

Results flagged for a closer look

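The response to hemin differed between the genotypes, by the interaction term of the fit, for 9 genes of the set (5.13% of all genes tested). Each value is the hemin response of colonoids labelled KO minus that of controls on the log2 scale. The response was lower in those labelled KO for *Cyp1b1* (-2.64), *Cyp2f2* (-2.28), *Cyp2b10* (-1.83), *Cyp2c55* (-1.38), *Cyp2c68* (-1.23) and *Cyp39a1* (-1.12). These 6 were of different kinds. *Cyp2c55* and *Cyp2c68* rose in controls and were not called in those labelled KO (1.04-fold and 1.37-fold), whereas *Cyp2f2*, *Cyp2b10* and *Cyp39a1* fell in those labelled KO and were not called in controls. The response was higher in those labelled KO for *Cyp3a13* (1.46) and *Cyp2d10* (1.39), which rose there, and for *Cyp2s1* (1.22), which fell less there than in controls. *Cyp1b1* rose 34.4-fold in controls and 26.5-fold (counting interval 9.82 to 146) from 3 fragments in all in those labelled KO, and its interaction with limma-voom was -0.61 (adjusted p = 0.672), where it was not called.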

How the results depend on the processing

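Of the 51 calls of single genes, 47 held under every alternative that gave a value. Those lost were the interaction of *Cyp1b1* with limma-voom, the hemin fall of *Cyp2s1* and the genotype difference with hemin of *Cyp4f14* without replicate 2 of hemin-treated libraries labelled KO or without the 3 libraries of highest *Gm23935*, and the interaction of *Cyp2c68* without replicate 3 of hemin-treated controls. Calls were also gained, among 70 pairs of gene and comparison called in the main fit or an alternative other than the adjusted p alone. With a pseudocount of 0.1 these were 14, and with limma-voom on the genes of the filter 14. The interaction of *Cyp1a1* reversed to -2.36707 with limma-voom on the genes of the filter and -2.37128 on those with at least 10 fragments. Counts of calls are given in the order hemin in controls, hemin in those labelled KO, genotype with vehicle, genotype with hemin, and interaction. With the adjusted p alone they were 18, 20, 21, 19 and 18 of 28, against 49.9%, 60.4%, 34.2%, 34.4% and 23.8% of all genes tested. With limma-voom on genes with at least 10 fragments they were 21, 23, 27, 23 and 15 of 54, against 13.8%, 20.8%, 12.2%, 11% and 6.81%. A mean FPKM of at least 5 left 20 genes and 5 interactions. Leaving out each library gave 10 to 10, 12 to 14, 10 to 10, 9 to 10 and 9 to 11. Whether replicate numbers pair the libraries is not stated. Correlations of deviations from group means were -0.33 to 0.18 over 18 same-numbered pairs and -0.39 to 0.34 over 36 others. With 3 libraries per group they cannot exclude pairing. The replicate block gave 10, 13, 10, 9 and 9 and changed none of 70 values' calls. TPM moved the median of all genes by -0.18, -0.31, 0.14, 0.0072 and -0.13 and gave 11, 14, 13, 11 and 12 calls. Depth limits the 74 genes under the filter, where 3 fragments or fewer cannot be told from 0.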
